A study of Homo sapiens with 12 samples.

Results

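The genes described here are 9 genes of epithelial adhesion and the tight junction, namely CDH1, CTNND1, EPCAM, CLDN3, CLDN4, CLDN7, OCLN, TJP1 and TJP3, out of 20037 protein-coding genes. They were named by symbol and role. A peak was assigned to a gene when its midpoint lay in the gene's GRCh38 span on the same strand. Peaks were listed for 8 of the 9 genes in some library, and for 5 of them in every library. Over the whole table of genes, 12092 carried a listed peak somewhere and 5892 did so in all libraries.

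The libraries came from SW620, a human colorectal cancer line grown from a lymph node metastasis. N4-acetylcytidine (ac4C), a modification of cytidine in RNA, was mapped by acRIP-seq, in which RNA fragments bound by an ac4C antibody are sequenced and called as peaks. Control cells carried a control short hairpin RNA (shControl, labelled wild type) and the knockdown cells one against NAT10 (shNAT10, NAT10 knockdown), in lines made by lentiviral infection, with 3 immunoprecipitated libraries in each group. The labels give neither which NAT10 hairpin was used nor whether the replicates were separate cultures, so the p-values measure only the spread between these libraries, which may be technical.

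NAT10 is the acetyltransferase that places ac4C on RNA. Epithelial cells hold together through adherens junctions, in which E-cadherin binds its like on the next cell and is held by catenins, and through tight junctions, in which claudins and occludin seal the gap between cells and are anchored to actin by the zonula occludens scaffolds. Colorectal cancer cells often keep much of this machinery, and its loss is a mark of the epithelial to mesenchymal transition.

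The lists held 18241, 22619 and 20063 peaks in control libraries 1, 2 and 3 and 28752, 17877 and 19047 in knockdown libraries 1, 2 and 3. Each peak had a score from 50 to 3233.06, and 7.61% to 13.7% of the peaks of a library shared the value of exactly 3100. The lists carry no read counts, so the sequencing depth is unknown, no counting interval can be given, and a gene without a peak is one with none listed, not one shown to lack ac4C. Knockdown library 1 alone supplied 44.3% of the regions listed in a single library. Of 9 colon epithelium markers 5 had a peak, among them VIL1, CDX2 and KRT8, while KRT18, KRT20, CDX1 and GPA33 had none. KRT19 and LGALS4 were listed in control library 2 and knockdown library 1 alone. For KRT18 and CDX1 no strand was known, so no peak could be assigned to them. The summed number of the 9 markers was 8 to 12 in the control and 8 to 15 in the knockdown libraries. Among the leukocyte markers LYZ, PTPRC, CD3E and CD14, LYZ alone had a peak (sums of 0 to 1 in control and 0 to 2 in knockdown libraries). Of 6 fibroblast and endothelium markers COL1A1 and VWF had peaks, with sums of 0, 4 and 5 in the control and 3, 0 and 0 in the knockdown libraries. The part of these differences in the results below was not tested. The NAT10 gene itself held 1, 0 and 2 peaks in the control and 2, 0 and 1 in the knockdown libraries, which does not measure its RNA and so does not check the knockdown.

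A peak covered an annotated transcription start in most of the adhesion and junction genes, with further peaks in the body of CDH1, OCLN, TJP1 and TJP3. A peak covered an annotated start in at least 1 library in 7 of the 8 genes overlapped by a peak, beside 47.5% of the 12252 protein-coding genes overlapped by a peak. It did so in all 6 libraries in 5 of them, namely CDH1, EPCAM, CLDN3, OCLN and TJP1, beside 20.8% of those genes. TJP3 was the exception, with no peak over a start in any library. Covering a start is not the same as lying at the 5′ end. In CLDN3 and CLDN4 the peak spanned the whole or nearly the whole gene. In TJP1 the covered start was an internal one, with the region centred 54.4% of the way along the span. In CTNND1 the peak was listed in 1 library.

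The sequence around such a start is given for the 4 genes whose peak-covered start was in the promoter table of RefSeq (GRCh38.p14), each 5′ to 3′ with 150 bases before the start and 30 bases from the start on, to show where the listed peaks begin. Capitals mark bases under a listed peak in at least 1 library. The windows are OCLN at chr5:69492397-69492576 (plus strand), CLDN3 at chr7:73770241-73770420 (minus strand), CLDN4 at chr7:73830846-73831025 (plus strand) and the internal start of TJP1 at chr15:29822439-29822618 (minus strand).
OCLN: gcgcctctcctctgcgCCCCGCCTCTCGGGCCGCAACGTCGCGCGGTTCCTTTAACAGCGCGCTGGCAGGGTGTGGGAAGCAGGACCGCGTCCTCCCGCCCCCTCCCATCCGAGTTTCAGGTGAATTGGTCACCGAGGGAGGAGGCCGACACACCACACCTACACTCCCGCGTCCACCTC
CLDN3: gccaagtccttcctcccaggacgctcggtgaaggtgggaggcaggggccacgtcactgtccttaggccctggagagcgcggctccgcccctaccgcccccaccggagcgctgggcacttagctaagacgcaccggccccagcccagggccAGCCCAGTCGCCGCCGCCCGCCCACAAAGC
CLDN4: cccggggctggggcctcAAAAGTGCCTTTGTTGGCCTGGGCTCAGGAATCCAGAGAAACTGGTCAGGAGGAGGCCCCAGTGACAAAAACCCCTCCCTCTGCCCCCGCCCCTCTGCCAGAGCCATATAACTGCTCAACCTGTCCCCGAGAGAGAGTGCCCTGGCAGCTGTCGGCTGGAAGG
TJP1: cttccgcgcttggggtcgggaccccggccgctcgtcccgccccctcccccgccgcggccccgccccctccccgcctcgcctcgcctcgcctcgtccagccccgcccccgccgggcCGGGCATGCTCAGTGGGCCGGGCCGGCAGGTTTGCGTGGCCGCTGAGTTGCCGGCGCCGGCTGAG
The peaks began at the annotated start in CLDN3, where 0 capitals lie upstream of it. They began before the start in the others, with 35 upstream bases in TJP1, 133 in CLDN4 and 134 in OCLN. In CLDN3 both borders of the peak were those of the gene span, in all libraries but knockdown library 1. How the peak borders were set is not given in the sources used here.

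Cytidines spaced by 2 other bases, as in CNNCNNCNNCNN, have been described around ac4C sites. In the 50 bases after the start, OCLN held 7 matches on the sense strand, CLDN3 held 2, the internal start of TJP1 held 1 and CLDN4 held 0, where matches may overlap each other. Cytidine made up 54% of these 50 bases in OCLN, 44% in CLDN3, 36% in TJP1 and 26% in CLDN4, and the median over all promoters was 28%. Matches also occurred at starts without a listed peak. The CLDN7 start at chr17:7262478 held 3 sense matches, with 50% cytidine, and the start of the TJP1 span held 1, with 30%. The remaining starts of TJP1, CLDN7 and TJP3 without a peak held 0. A second OCLN start at chr5:69492790, past the end of the listed peaks, also held 0 sense matches, with 36% cytidine. Of 12 listed promoters of these genes, 5 held a sense match and 8 an antisense match. Over all 35116 promoters the shares were 25.7% on the sense and 34.8% on the antisense strand. A match is a description of letters and not a site.

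Taken over the 9 genes, the number of listed peaks was higher in the knockdown libraries, and most of that came from the scaffold genes TJP1 and TJP3. The sum was 11, 14 and 12 peaks in control libraries 1, 2 and 3 (12.3 ± 1.53, SD, n = 3) and 21, 15 and 18 in knockdown libraries 1, 2 and 3 (18 ± 3.0, SD, n = 3). All knockdown libraries stood above all controls, although knockdown library 2 was only 1 peak above control library 2. Since the lists differ in size, the sum was also taken per 10000 listed peaks of the library. It was then 6.03, 6.19 and 5.98 in the controls and 7.30, 8.39 and 9.45 in the knockdown libraries, with means of 6.07 ± 0.109 and 8.38 ± 1.07 (SD, n = 3). With the 50% of peaks that score highest in each library, the difference of the sums, 5.67 peaks on all peaks, was 2.0 peaks. The groups then overlapped, as knockdown library 2 no longer stood above any control library. In the wider set of 72 other junction and epithelial genes described below, the groups overlapped. The sums there were 111, 128 and 126 peaks in control libraries 1, 2 and 3 and 159, 112 and 116 in knockdown libraries 1, 2 and 3.

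**Figure D1:**
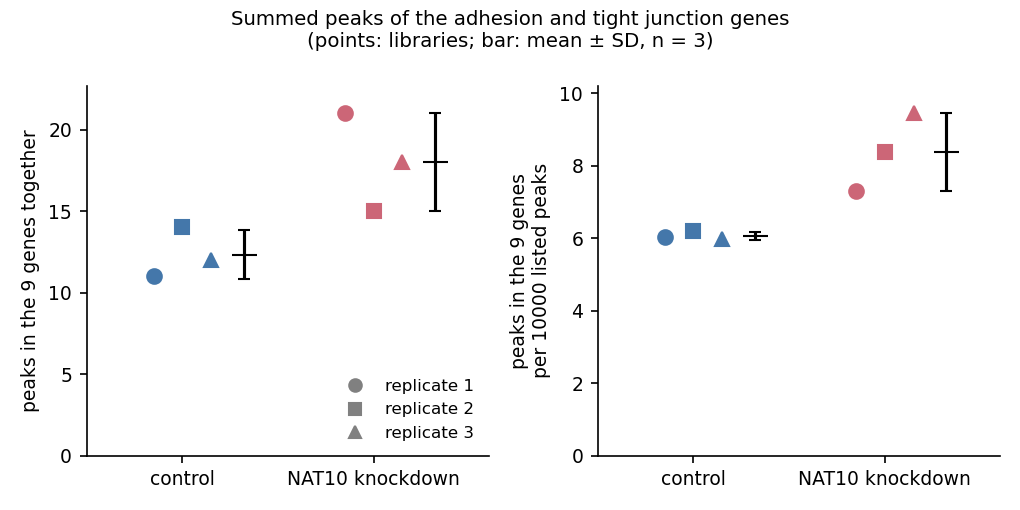
Peaks listed in the 9 adhesion and tight junction genes together, as a number (left axis) and per 10000 peaks of the library (right axis), for control and NAT10 knockdown libraries. Points are libraries, with the replicate number as the marker shape, and bars are mean ± SD (n = 3); the knockdown libraries sit at 15 to 21 peaks and the controls at 11 to 14.

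Since the genes differ in length, the numbers of peaks were also taken per length of the span. Per 10 kb of gene span, introns included, the mean over the 6 libraries was 7.85 peaks in CLDN3, 2.95 in CLDN4, 1.18 in TJP3, 0.565 in EPCAM, 0.237 in CDH1, 0.178 in OCLN, 0.148 in TJP1, 0.029 in CTNND1 and 0 in CLDN7. The short genes CLDN3 and CLDN4 therefore ranked first with at most 1 peak each. Because the span includes introns, this order does not give peaks per length of mRNA.

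**Figure D2:**
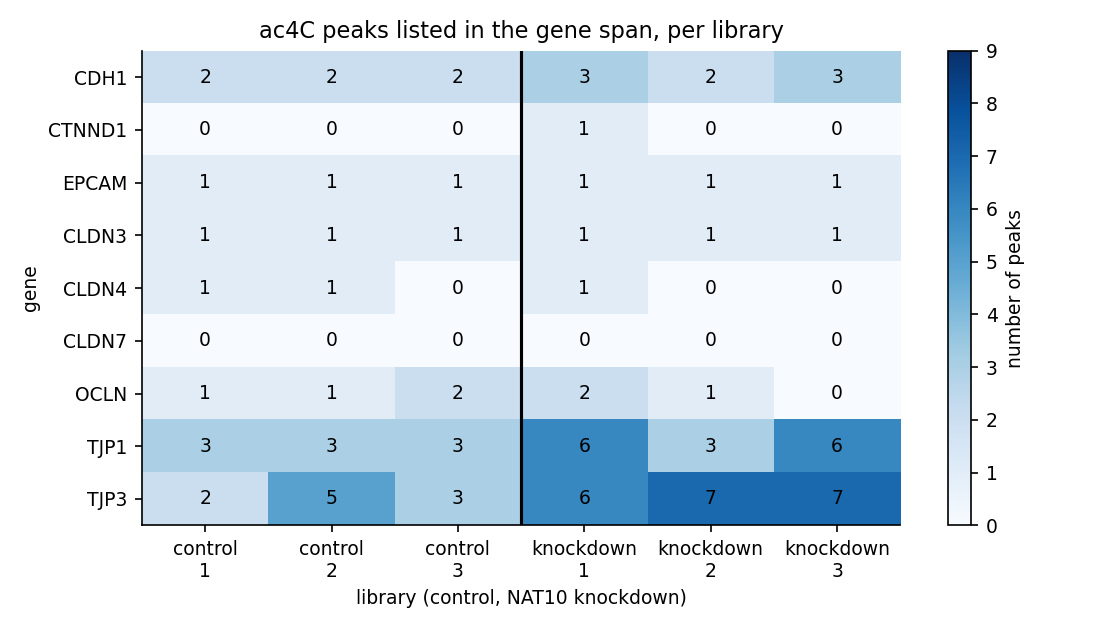
Number of ac4C peaks listed in the span of each adhesion and tight junction gene (vertical axis, genes; horizontal axis, library), written in the cell and shown by colour from 0 to 9 peaks. TJP3 holds 2 to 5 peaks in the controls and 6 to 7 in the knockdown libraries, and CLDN7 holds 0 throughout.

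Peaks of different libraries that overlapped by at least 1 base on the same strand were merged into regions. By midpoint 91 peaks were assigned to these genes. With 4 more peaks at the OCLN start, whose midpoint lay outside the span, 95 peaks formed 29 regions, numbered within a gene from its 5′ end, and 9 of them were listed in all 6 libraries. Of the 20 regions in at least 2 libraries, 12 had the same start and end in every library that listed them. A single library listed 9 regions, which is 9 of 29 beside 38.7% of all 41755 regions. Of these 9 regions, 5 were in knockdown library 1 and 4 in knockdown library 3. Over all regions listed once, knockdown libraries 1, 2 and 3 supplied 44.3%, 4.48% and 6.49%. Control libraries 1, 2 and 3 supplied 10.1%, 23.1% and 11.5% of them. More knockdown than control libraries listed 15 regions, fewer listed 3, and 11 were listed equally. The first is 51.7% of the 29, beside 37.0% over all regions.

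Among the adherens junction genes, CDH1 kept a strong peak at its start in every library and CTNND1 was listed once. CDH1 encodes E-cadherin, the adhesion receptor of the adherens junction, and held 2, 2 and 2 peaks in the controls and 3, 2 and 3 in the knockdown libraries. The groups met at 2 peaks, and the two-sided exact permutation test over libraries gave p = 0.4, where the smallest p that 3 against 3 allows is 0.1. The region at the start lay at chr16:68737225-68737463 on the plus strand, beginning 67 bases upstream of the gene span, with the same borders in all 6 libraries. Its score was 1050.58, 2885.32 and 2011.48 in the controls and 3100 in each of the knockdown libraries.

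Scores were compared between libraries as percentiles, the share of the library's own peaks with a lower score, ties counted at their middle. The start region of CDH1 stood at percentile 79.8, 89.3 and 82 in the controls and 92.7, 94.0 and 93.2 in the knockdown libraries. All knockdown values were above all control values, with means of 83.7 ± 4.95 and 93.3 ± 0.648 (SD, n = 3), an exact permutation p = 0.1 and a Benjamini-Hochberg adjusted p = 0.669 over the 9195 regions listed in all 6 libraries. Of those regions 6.98% were higher in this way, and 0.663% (61) stood at 3100 in all knockdown libraries and below it in all controls. With ties at their lowest rank the knockdown percentiles became 85.9, 88.5 and 86.9, below the 89.3 of control library 2, so the groups then overlapped.

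The other shared region of CDH1, chr16:68801670-68801893, lay 65.6% of the way along the span. Its percentile was 74.2, 86.4 and 69.9 in the controls and 85.1, 83.2 and 82.4 in the knockdown libraries, and the groups overlapped (76.8 ± 8.56 and 83.6 ± 1.4, SD, n = 3, exact permutation p = 0.4). The remaining regions of CDH1 were each listed in a single library, region 2 in knockdown library 3 at percentile 58.3 and region 4 in knockdown library 1 at percentile 4.0.

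CTNND1 encodes p120-catenin, which binds the tail of cadherins and keeps them at the cell surface. It held 0 peaks in all libraries but knockdown library 1, where 1 peak at chr11:57761797-57762119 covered its start at percentile 23.0. That peak also lies in the span of TMX2-CTNND1, a read-through RNA on the same stretch, and the source of the fragments cannot be told apart. The exact permutation test of the numbers gave p = 1.

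EPCAM, an adhesion protein of epithelial cells and a common carcinoma marker, held 1 peak in each of the 6 libraries. Its region, chr2:47369148-47369581 on the plus strand, reached 163 bases upstream of the gene span. The percentile was 85.7, 94.8 and 93.2 in the controls and 92.7, 86.9 and 93.2 in the knockdown libraries. The groups overlapped almost fully (91.3 ± 4.87 and 91.0 ± 3.49, SD, n = 3, exact permutation p = 0.8).

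The claudins, which form the sealing strands of the tight junction, showed 3 different patterns of listing. CLDN3 held 1 peak in every library, and that peak covered its whole span of 1274 bases, chr7:73768997-73770270 on the minus strand, in all but knockdown library 1, where it was slightly shorter. Its percentile was 84.6, 94.8 and 93.2 in the controls and 92.7, 94.0 and 99.5 in the knockdown libraries. The groups overlapped (90.9 ± 5.50 and 95.4 ± 3.62, SD, n = 3, exact permutation p = 0.5).

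CLDN4 was listed in control libraries 1 and 2 and in knockdown library 1 and in no other. The peak covered the whole gene from 133 bases upstream (chr7:73830863-73832693, plus strand), at percentile 42.2 and 34.6 in the controls and 74.1 in knockdown library 1. Its number was 0.667 ± 0.577 in the controls and 0.333 ± 0.577 in the knockdown libraries (SD, n = 3, exact permutation p = 1). CLDN7 held 0 peaks in every library, and 38 bases of its span are shared with ELP5.

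OCLN encodes occludin, a membrane protein of the tight junction. Its start region at chr5:69492413-69492659 was listed in all 6 libraries with 5 different starts and 1 end, and its midpoint fell inside the span only in control library 3 and knockdown library 1. By midpoint the gene therefore held 1, 1 and 2 peaks in the controls and 2, 1 and 0 in the knockdown libraries, with overlapping groups (exact permutation p = 1). By an overlap of at least 1 base the numbers were 2, 2 and 2 in the controls and 2, 2 and 1 in the knockdown libraries.

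The percentile of the OCLN start region was 68.5, 73.3 and 48.3 in the controls and 62.6, 68.1 and 58.2 in the knockdown libraries, and the groups overlapped (63.3 ± 13.3 and 63.0 ± 4.96, SD, n = 3, exact permutation p = 0.9). Region 2 of OCLN, chr5:69504177-69504294, stood at 12.7, 13.5 and 9.57 in the controls and at 55.2 and 19.1 in knockdown libraries 1 and 2, and was not listed in knockdown library 3. No peak lay in the span of the pseudogene OCLNP1.

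TJP1 encodes ZO-1, the scaffold that links claudins and occludin to the actin cytoskeleton. It held 3, 3 and 3 peaks in the controls and 6, 3 and 6 in the knockdown libraries, with means of 3.0 ± 0 and 5.0 ± 1.73 (SD, n = 3). Knockdown libraries 1 and 3 were above the controls and knockdown library 2 was level with them, with an exact permutation p = 0.4. Per 10000 listed peaks the numbers were 1.64, 1.33 and 1.5 in the controls and 2.09, 1.68 and 3.15 in the knockdown libraries, which no longer overlapped (exact permutation p = 0.1). On that scale 3.48% of the 12092 genes were higher in every knockdown library.

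Regions 1, 6 and 7 of TJP1 were listed in all 6 libraries. The other 5 were listed in knockdown libraries alone, region 4 in knockdown libraries 1 and 3, regions 5 and 8 in knockdown library 1 and regions 2 and 3 in knockdown library 3. The percentiles of these 5 ran from 4.80 to 48.2, below all values of the 3 shared regions other than those of region 6 in knockdown library 2.

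**Figure D3:**
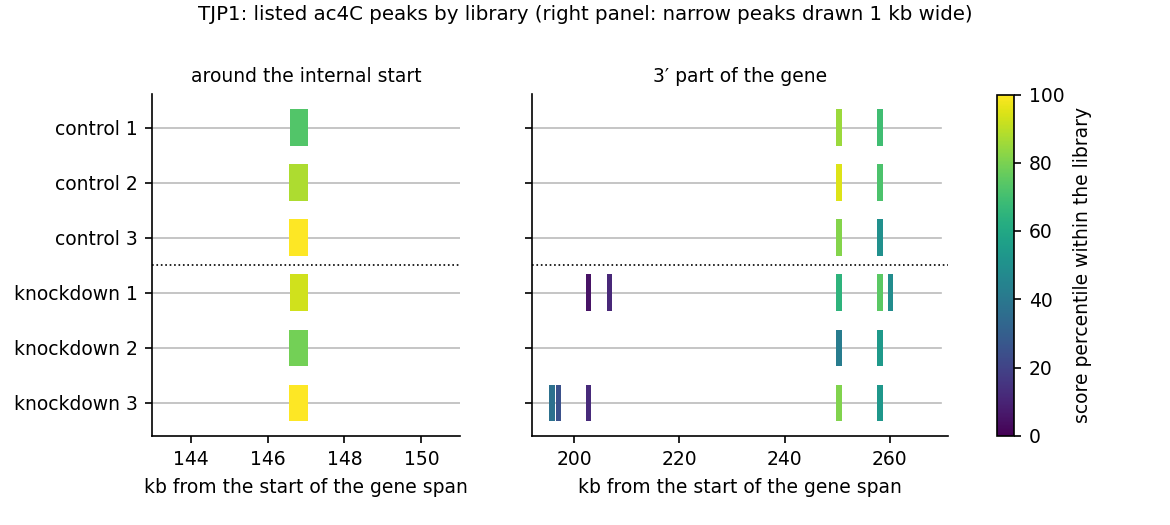
Peaks listed in TJP1 by library (vertical axis), against the distance in kb from the start of the gene span in the direction of transcription, around the internal start (left, to scale) and in the 3′ part (right, peaks narrower than 1 kb widened to it). Colour is the score percentile in the library; 3 regions appear in all 6 libraries and the added ones only in knockdown libraries 1 and 3.

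Region 1 of TJP1, chr15:29822002-29822503, covered the internal start shown above. Its percentile was 72.8, 87.8 and 99.8 in the controls and 92.7, 78.9 and 99.6 in the knockdown libraries, with overlapping groups (86.8 ± 13.5 and 90.4 ± 10.6, SD, n = 3, exact permutation p = 0.8). Both groups spread widely there.

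Region 6 of TJP1, chr15:29718266-29719138, had lower percentiles in the knockdown libraries. Its score was 1515.65, 3100 and 1934.04 in the controls and 739.29, 239.5 and 1915.16 in the knockdown libraries, and its percentile 85.1, 94.8 and 81.4 against 64.6, 41.6 and 81.1. The percentile groups did not overlap, by a margin of less than 1 percentile between control library 3 and knockdown library 3. The difference of the means was -24.7 percentiles, and -14.3 without knockdown library 2. The means were 87.1 ± 6.93 and 62.4 ± 19.8 (SD, n = 3), with an exact permutation p = 0.1 and a Benjamini-Hochberg adjusted p = 0.669, and 4.05% of the 9195 shared regions were lower in this way. The scores themselves overlapped between the groups, as did the percentiles taken over an equal number of peaks per library (79.1 in control library 3 and 79.9 in knockdown library 3).

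Region 7 of TJP1, chr15:29710831-29711000, stood at 69.4, 71.6 and 49.9 in the controls and 74.3, 53.6 and 52.9 in the knockdown libraries, and the groups overlapped (63.6 ± 11.9 and 60.3 ± 12.1, SD, n = 3, exact permutation p = 1). In the span of a pseudogene, TJP1P1 on chromosome 16, 5 peaks were listed over the 6 libraries, counted on either strand. Whether these peaks belong to another gene there was not examined. How reads that match both copies were placed is not given in the sources used here.

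**Figure D4:**
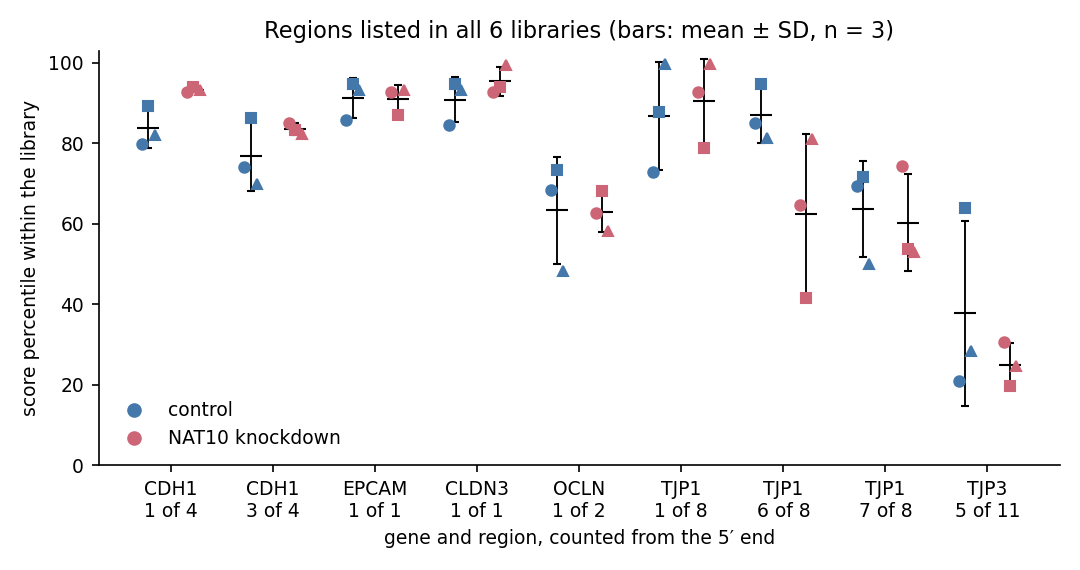
Score percentile within the library (vertical axis) of the 9 regions of the adhesion and tight junction genes that all 6 libraries list (horizontal axis, gene and region counted from the 5′ end). Points are libraries (circle, square and triangle for replicates 1, 2 and 3) and bars mean ± SD (n = 3); the groups are apart in CDH1 region 1 and TJP1 region 6 and overlap in the other 7.

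Over the 9 regions shared by all libraries, the median of the knockdown minus control difference in percentile was -0.303, beside 0.703 over all 9195 such regions. The groups were apart in 1 region upward and 1 downward, and overlapped in the other 7. The adjusted p of the 9 regions ran from 0.669 to 1.

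TJP3 encodes ZO-3, the scaffold of the same family that is found mainly in epithelia. It was the gene whose numbers did not overlap between the groups. It held 2, 5 and 3 peaks in the controls and 6, 7 and 7 in the knockdown libraries, with means of 3.33 ± 1.53 and 6.67 ± 0.577 (SD, n = 3). The difference was 3.33 peaks, with a two-sided exact permutation p = 0.1 and a Benjamini-Hochberg adjusted p = 1 over 12092 genes. This was 1 of the 8 genes with a peak, beside 1.57% of all genes with a peak that were higher in every knockdown library and 0.653% that were lower. Among genes with 20 to 40 peaks over the 6 libraries, as TJP3 has, 3.67% were higher.

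Per 10000 listed peaks, TJP3 held 1.1, 2.21 and 1.5 in the controls and 2.09, 3.92 and 3.68 in the knockdown libraries. The value of knockdown library 1, the longest list, then fell below that of control library 2, and the groups overlapped (1.6 ± 0.564 and 3.23 ± 0.994, SD, n = 3, exact permutation p = 0.2). With an equal number of top-scored peaks per library the numbers were 2, 3 and 3 against 4, 7 and 6, which did not overlap. With the top-scored 50% they were 0, 1 and 2 against 3, 1 and 1, which did.

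The peaks of TJP3 formed 11 regions, all at or beyond 47.7% of the way along the span (chr19:3708384-3750813, plus strand). Region 5, chr19:3736165-3736321, was the only one listed in all 6 libraries. Its percentile was 21.0, 63.9 and 28.4 in the controls and 30.5, 19.8 and 24.7 in the knockdown libraries, with overlapping groups (37.8 ± 22.9 and 25.0 ± 5.37, SD, n = 3, exact permutation p = 0.6).

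Region 3, chr19:3731935-3732038, was the only region of the 29 listed in all 3 knockdown libraries and no control. It stood at percentile 55.9, 17.9 and 11.8 in knockdown libraries 1, 2 and 3, with scores of 477.38, 95.55 and 78.79. Of all 41755 regions 0.819% were listed in this way and 0.34% in all controls and no knockdown library, of which these genes had 0.

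Regions 2 (chr19:3730355-3730706) and 10 (chr19:3746485-3746695) were listed in all knockdown libraries and in control library 3. Region 2 stood at percentile 50.5 in that control and at 73.4, 67.4 and 62.8 in the knockdown libraries. Region 10 stood at 56.5 in that control and at 56.9, 32.1 and 43.4 in the knockdown libraries.

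The remaining regions of TJP3 were shared more thinly. Region 9 was listed in control libraries 1 and 2 and in no knockdown library, and region 11 in knockdown libraries 2 and 3 and in no control. Region 4 was listed in control 2 and knockdown 2, region 8 in control 2 and knockdown 1, and region 7 in control 2, knockdown 2 and knockdown 3. Region 1 was listed in knockdown library 3 alone and region 6 in knockdown library 1 alone.

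**Figure D5:**
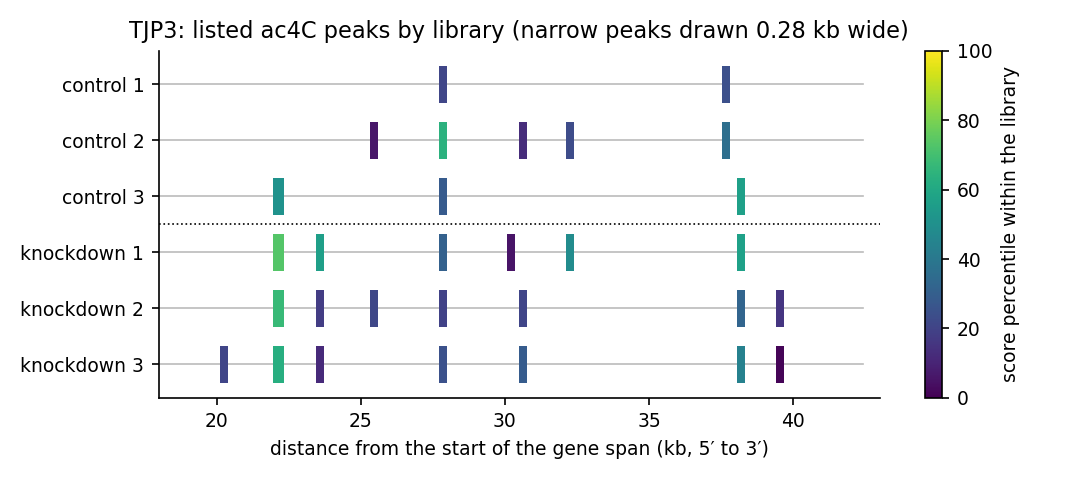
Peaks listed in TJP3 by library (vertical axis), against the distance in kb from the start of the gene span, 5′ to 3′ (peaks narrower than 0.28 kb widened to it). Colour is the score percentile in the library; the region near 24 kb appears in the 3 knockdown libraries alone and the one near 28 kb in all 6.

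Among 2518 genes with at least 2 peaks in every library, the numbers most like those of TJP3 over the 6 libraries were those of AP3D1 (Pearson r = 0.981), ANKS6 (r = 0.946) and WTIP (r = 0.945), given as a description. AP3D1 held 6, 10 and 7 peaks in the controls and 11, 12 and 11 in the knockdown libraries. WTIP held 3, 4 and 3 in the controls and 5, 6 and 5 in the knockdown libraries. These values share the size of each library's list.

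In the wider set of 72 other junction and epithelial genes, a peak was listed for 57, in all libraries for 34. The numbers did not overlap between the groups in 3 upward and 2 downward, beside the 1.57% and 0.653% over all genes given above. PLEKHA7, which joins p120-catenin to microtubules at the adherens junction, held 5, 5 and 5 peaks in the controls and 8, 7 and 7 in the knockdown libraries. AMOTL2, an angiomotin of cell junctions, held 4, 5 and 5 against 10, 7 and 7, and OVOL2, a transcription factor that maintains epithelial identity, 1, 1 and 2 against 3, 4 and 4.

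The genes with lower numbers were CGNL1, the junction protein paracingulin, with 9, 12 and 11 peaks in the controls and 7, 4 and 7 in the knockdown libraries, and FN1, the matrix protein fibronectin of mesenchymal cells, with 2, 3 and 2 against 1, 0 and 0. By role, a peak was listed for 11 of 14 adherens junction genes, 20 of 24 tight junction genes, 7 of 9 desmosome genes, 5 of 7 partners and proteases of EPCAM, 7 of 10 epithelial regulators and 7 of 8 mesenchymal genes. The adherens junction list held PLEKHA7 and the tight junction list both AMOTL2 and CGNL1. In the desmosome list and the EPCAM list 0 genes differed without overlap. CTNNB1, the β-catenin that binds E-cadherin, held 1, 0 and 0 peaks in the controls and 0 in the knockdown libraries.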

How the data were processed

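Peak lists of 6 immunoprecipitated acRIP-seq libraries (3 shControl, 3 shNAT10) were analysed, grouped by the labels; 6 input samples were not analysed here. The authors deposited 1 list per library, not pooled, with peak positions and a score. The caller, its settings and the scale of the score are not given in the sources used here. The build is GRCh38 per the submitters' processing notes. Gene spans came from RefSeq, with strand from the promoter table (15843 genes) or else from the majority of the peaks (2194, CDH1, CTNND1 and EPCAM among them). The remaining 2000 genes had no strand and could not be assigned a peak. No exon annotation was used. Peaks were assigned on the gene's strand by rule, and allowing either strand left the group differences in peak number of these genes unchanged. None of the 91 peaks assigned by midpoint lay in another coding gene's span on the same strand.

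Peaks per gene and score percentiles were set against the group labels by exact two-sided permutation over libraries (20 label assignments, smallest p 0.1) with Benjamini-Hochberg adjustment over all genes or regions. Over all 12092 genes, 269 reached the exact permutation p = 0.1, 0 had an unadjusted p under 0.05, which 3 against 3 cannot give, and the smallest adjusted p was 1. Genes or regions whose groups did not overlap were counted. The calling and merging steps were run on simulated lists with large planted group differences. That checks the code and cannot show how the calls behave on small differences. The members and gene lists were chosen with earlier results of these data known, although the rule itself uses no peak value. A further leukocyte marker is not reported here. Named regions were, per gene, the one with the highest median percentile and those apart between groups, and the other regions were added to account for every peak. Python 3.11.15, numpy 2.4.6, pandas 2.3.3 and scipy 1.17.1 were used. The alternatives were the top-scored 50% of peaks, an equal number of peaks (17877), assignment by overlap, a 50% coverage rule for merging, the rank of ties, the replicate block and leaving out each library; the number per 10000 peaks and the score itself were chosen after seeing the data.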

Additional observations from a re-analysis of the deposited data

How the results depend on the processing

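With the top-scored 50% of peaks, the difference of the summed number was 2.0 peaks (1.20 per 10000), with groups that overlapped. In that setting 0 genes were apart by number, and 0 regions were listed in all libraries of 1 group and none of the other. TJP1 region 6 was no longer listed in knockdown library 2. The percentiles of CDH1 region 1 became 59.7, 78.6 and 64.1 in the controls and 85.5, 88.0 and 86.4 in the knockdown libraries. For a region in the upper 50% of every library this cut only rescales the percentiles, so it could not make the groups overlap. The differences of CLDN4 (0.333) and OCLN (0.667) turned upward. With an equal number of peaks per library the difference of OCLN was 0.333, 1 shared region was apart by percentile and 3 other junction genes were apart by number. That count of shared regions was also 1 with ties at the lowest rank or with the score itself. Counting regions listed in at least 2 more libraries of 1 group than of the other gave 6 regions. That rule is looser, and the share of all regions that meet it is not given here.

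Leaving out each library in turn gave a summed difference of 4.17 to 7.17 peaks (1.78 to 2.85 per 10000), 1 to 3 genes apart by number (3 without knockdown library 2), 1 to 4 regions listed in all libraries of 1 group and none of the other (4 without control library 3, 2 without knockdown library 1 or 2), 2 to 3 shared regions apart by percentile and 5 to 8 other junction genes (8 without control library 3). Each rule behind these counts of genes and regions is easier to meet with 1 library fewer. The shares of all genes and regions that meet it then are not given here, so the higher counts have no background beside them. The difference of OCLN ran from -0.833 to 0.167 peaks. The percentile differences that changed sign ran from -3.08 to 1.71 in EPCAM, -7.90 to 4.62 in OCLN region 1, -3.39 to 10.1 in TJP1 region 1, -10.4 to 0.628 in TJP1 region 7 and -21.1 to 0.299 in TJP3 region 5. Those that kept their sign ran from -34.0 to -14.3 in TJP1 region 6, 7.65 to 12.4 in CDH1 region 1, 3.26 to 11.5 in CDH1 region 3 (lowest without control library 3, highest without control library 2) and 1.4 to 6.51 in CLDN3 (lowest without control library 1).

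The replicate numbers did not pair the libraries: deviations of same-numbered libraries correlated at -0.178, -0.120 and -0.003, and 0 of 6 libraries correlated best with their own number. With the replicate block the summed difference was 5.67 and the exact sign-flip permutation p of TJP3 was 0.25, the smallest that 3 pairs allow. Of 268 values under other settings, 15 changed sign. No p could reach 0.05 at this number of libraries, so the tests say nothing about stability. Depth is unknown, which limits every statement on a gene without a peak.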
